A study of Mus musculus with 22 samples.

Results

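Interferon-stimulated genes (ISGs) were followed in the retina and retinal pigment epithelium (RPE) of mice that lack the adiponectin receptor ADIPOR1. The members were 33 named genes, 22 of them typical of a type I interferon response and 11 typical of interferon gamma (called gamma type here). They were taken by gene symbol from the 53801 genes of each bulk RNA-Seq count table and the 19324 genes of the single-cell matrix, and all 33 were found in each. The 22 type I members were 3 regulators of transcription, 14 antiviral effectors, 3 genes of the ISG15 system and 2 RNA sensors, and the 11 gamma-type members were 2 regulators, 6 GTPases and 3 immunoproteasome genes. The rule for choosing them names genes only and uses no threshold on measured values. The members were, however, chosen with earlier results of these data known. Counts of members set against the share of all genes therefore describe this list only.

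AdipoR1-/- (KO) mice and wild-type (WT) mice, both labelled C57BL/6J, were compared. The KO allele came from a B6.129P2-Adipor1tm1Dgen stock backcrossed to C57BL/6J, and all KO libraries carry this 1 allele. Bulk libraries were made at P30 from 4 KO and 4 WT retina samples and from 4 KO and 4 WT RPE samples, the RPE being the cells shaken off the eyecup after the retina had been taken out. Single-cell libraries were made from the retina at P19, P25 and P30, 1 for each genotype and age, each from a pool of 4 retinae. The study counts its bulk replicates as mice, while the labels name no animals, and p-values measure the spread between these samples.

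Type I interferons bind the receptor IFNAR and activate STAT2, which joins IRF9 in a complex that binds interferon-stimulated response elements (ISREs). Interferon gamma binds IFNGR, and its signal acts through gamma-activated sites (GAS) and induces IRF1, GTPases and antigen processing genes. The 2 programmes overlap, and most members respond to both to some extent. In the eye, glia, vascular cells and microglia are known to express ISGs in injury and infection.

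Promoters are shown for 5 members that recur in the results below, 3 of type I (Ifit1, Isg15, Bst2) and 2 of gamma type (Gbp2, Irf1). RefSeq on build GRCm38.p6 gave a promoter (250 bases before the start site to 50 after it) for 29 of the 33 members; Rtp4, Parp14, Usp18 and Dhx58 had no entry. An ISRE-like motif (GAAANNGAAA) and a GAS-like motif (TTCNNNGAA) were searched on both strands. The 250 bases before the start site are printed 5′ to 3′ on the gene's strand, with the bases of either motif in capitals, and matches that overlap run together.
Ifit1 (chr19:34640639-34640888, plus strand): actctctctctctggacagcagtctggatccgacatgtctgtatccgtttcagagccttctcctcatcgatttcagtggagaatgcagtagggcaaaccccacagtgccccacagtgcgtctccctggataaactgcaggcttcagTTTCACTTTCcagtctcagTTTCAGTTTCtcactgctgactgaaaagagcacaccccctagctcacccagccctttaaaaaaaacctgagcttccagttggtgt
Isg15 (chr4:156200819-156201068, minus strand): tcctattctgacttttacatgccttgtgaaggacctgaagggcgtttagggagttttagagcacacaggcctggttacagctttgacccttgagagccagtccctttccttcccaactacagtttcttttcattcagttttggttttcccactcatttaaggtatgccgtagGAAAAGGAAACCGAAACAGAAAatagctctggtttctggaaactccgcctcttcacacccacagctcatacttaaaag
Bst2 (chr8:71537473-71537722, minus strand): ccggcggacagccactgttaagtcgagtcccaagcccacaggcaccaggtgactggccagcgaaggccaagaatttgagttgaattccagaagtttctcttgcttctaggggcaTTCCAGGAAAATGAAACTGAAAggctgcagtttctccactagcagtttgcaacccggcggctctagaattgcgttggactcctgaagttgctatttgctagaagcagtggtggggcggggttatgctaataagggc
Gbp2 (chr3:142620413-142620662, plus strand): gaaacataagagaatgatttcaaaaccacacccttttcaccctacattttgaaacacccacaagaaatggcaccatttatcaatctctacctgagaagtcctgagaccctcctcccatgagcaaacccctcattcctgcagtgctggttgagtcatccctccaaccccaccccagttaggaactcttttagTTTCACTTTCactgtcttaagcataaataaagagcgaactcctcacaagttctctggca
Irf1 (chr11:53769764-53770013, plus strand): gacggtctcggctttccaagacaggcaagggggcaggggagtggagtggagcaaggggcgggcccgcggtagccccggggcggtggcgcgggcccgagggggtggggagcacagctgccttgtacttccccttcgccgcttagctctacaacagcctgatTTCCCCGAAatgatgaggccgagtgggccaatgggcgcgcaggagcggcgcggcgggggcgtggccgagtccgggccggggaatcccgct

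In the Isg15 promoter, 3 overlapping ISRE-like matches began 78, 72 and 66 bases before the start site. Ifit1 held 2 such matches, 104 and 85 bases before it. Bst2 held 2 that overlapped each other, 130 and 124 bases before it. Only the match at 130 bases shared bases with a GAS-like match. Gbp2 held 1 ISRE-like match, and the printed Irf1 promoter held 1 GAS-like match with no ISRE-like one. Over the 29 members, 16 held an ISRE-like match in at least 1 promoter, against 3.99% of 27025 genes with a promoter. A GAS-like match was found in 10 of the 29, against 9.55% of all genes. The members' types did not split by motif, since 9 of 18 type I and 7 of 11 gamma-type members held an ISRE-like match and 5 of 18 and 5 of 11 held a GAS-like one. A match describes letters in this window and is not a bound site.

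Bulk libraries held 22734843 to 35118164 counts in the retina and 20133143 to 38409496 in the RPE. Adipor1, the targeted gene, was 589 to 607 CPM in WT retinae and 136 to 142 CPM in KO retinae, and 374 to 479 CPM against 139 to 152 CPM in the RPE. The 6 single-cell libraries held 26764 cells, and shared at most 15 cell barcodes in any pair. Levels below are CPM (counts scaled to library size), normalised by the trimmed mean of M values (TMM) separately in each tissue's table. In bulk a gene counted as called where KO and WT levels differed 1.5-fold or more and the p of edgeR's quasi-likelihood test, adjusted after Benjamini and Hochberg over all genes tested, was below 0.05.

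In the KO retina at P30, 25 of the 33 members rose and none fell. The share called higher among all 19381 genes tested was 7.0%, and that called lower was 3.04%. With no minimum fold, 30 members passed, against 16.2% of all genes. In 30 members every KO library lay above every WT library, which was the case in 16.2% of all genes. The median log2 fold change was 1.29 for type I members and 1.31 for gamma-type members, against 0.0036 for all genes. Without TMM scaling the median of all genes was 0.11, and members are to be read against that shift. Taken with each KO retina in turn, the median was 1.31 to 1.38 for type I (SD 0.033, n = 4) and 1.15 to 1.41 for gamma type (SD 0.11, n = 4). Thus 16 of 22 type I and 9 of 11 gamma-type members were called, with medians that differed by less than the spread over KO retinae.

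**Figure D1:**
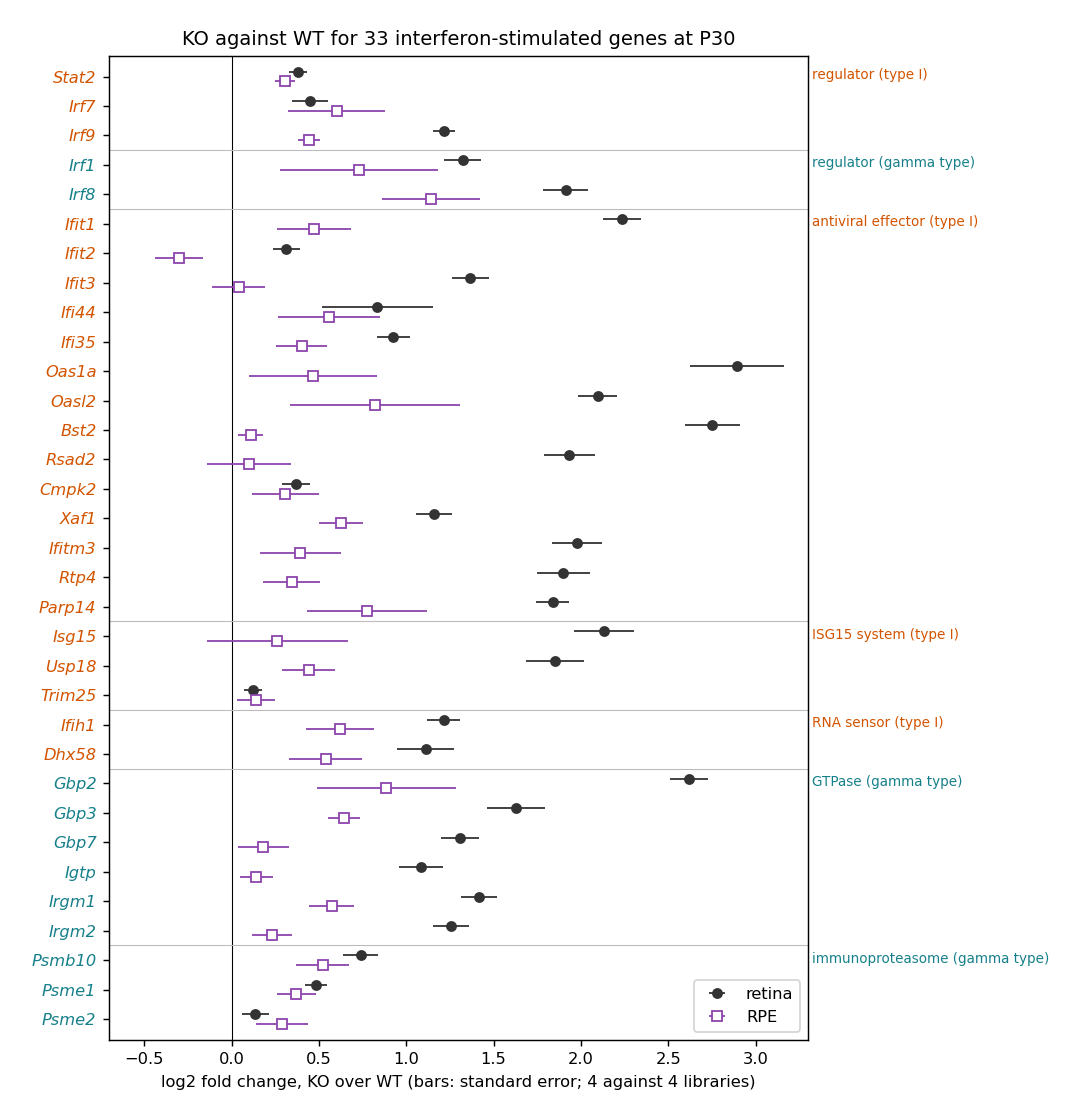
Log2 fold change of KO over WT at P30 for each of the 33 members in the retina (filled circles) and the RPE (open squares), with the standard error as bars; type I members are in orange and gamma-type members in teal. Retina values ran from 0.12 (Trim25) to 2.89 (Oas1a), and RPE values from -0.30 (Ifit2) to 1.14 (Irf8).

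Of the regulators in the retina, the 2 gamma-type ones rose most. Irf8, a factor of myeloid cells that interferon gamma induces, was 1.46, 1.41, 1.05 and 1.37 CPM in WT libraries 1 to 4 and 4.59, 5.21, 5.01 and 5.26 CPM in KO libraries, a log2 fold change of 1.91 ± 0.13 (SE; adjusted p = 1.38e-07, edgeR). Irf1, the early interferon gamma target that activates other genes, was 6.26, 7.47, 5.43 and 5.78 CPM against 14.9, 17.9, 15.6 and 13.9 CPM (1.32 ± 0.11, adjusted p = 7.72e-07, edgeR). For both genes the lowest KO library was well above the highest WT library.

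The type I regulators were uneven. Irf9, the DNA-binding part of the complex with STAT2, was 22.3, 21.6, 23.0 and 21.2 CPM in WT and 47.9, 48.3, 53.4 and 55.5 CPM in KO retinae (1.22 ± 0.06, adjusted p = 7.90e-09, edgeR). Stat2, its partner, was 55.2, 56.6, 60.5 and 58.9 CPM in WT and 73.5, 72.1, 74 and 81.8 CPM in KO, a log2 fold change of 0.38 ± 0.05 that stayed under the minimum fold although the groups did not overlap (adjusted p = 6.39e-05, edgeR). Irf7, which amplifies interferon production, gave 11.3, 15.9, 13.9 and 11.8 CPM against 18.6, 16.4, 17.3 and 19.9 CPM (0.45 ± 0.10, adjusted p = 0.00498, edgeR). The Irf7 groups met closely, with WT library 2 at 15.9 CPM and KO library 2 at 16.4 CPM.

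Antiviral effectors formed the largest group, and 11 of 14 rose, with a group median of 1.87 on the log2 scale. The largest log2 fold change belonged to Oas1a, a 2′-5′ oligoadenylate synthetase, at 2.89 ± 0.27 (adjusted p = 2.59e-06, edgeR), but its level was low, with 0.170, 0.211, 0.339 and 0.317 CPM in WT and 1.57, 1.56, 2.44 and 2.27 CPM in KO retinae. Bst2 (tetherin), which holds budding virus at the cell surface, went from 2.35, 3.56, 1.92 and 1.87 CPM to 15.4, 15.6, 16.4 and 18.2 CPM (2.75 ± 0.16, adjusted p = 2.84e-08, edgeR). Every KO library exceeded the highest WT library of Bst2 by a wide margin. Ifit1, which binds foreign RNA ends, was 3.47, 3.42, 2.49 and 2.78 CPM in WT and 13.1, 14.4, 15.5 and 14.5 CPM in KO (2.24 ± 0.11, adjusted p = 5.88e-09, edgeR).

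Oasl2, an oligoadenylate synthetase-like protein, stood at 11.4, 15.8, 10.7 and 10.0 CPM in WT and at 50.4, 50.2, 49.9 and 54.3 CPM in KO retinae (2.1 ± 0.11, adjusted p = 1.43e-08, edgeR). Ifit3 stood at 11.5, 14.2, 9.42 and 10.1 CPM against 29.4, 27.1, 30.1 and 30.4 CPM (1.37 ± 0.11, adjusted p = 4.33e-07, edgeR). WT library 2 was the highest WT library for both. Ifit3 has the near copy Ifit3b, and reads could be split between the pair. The other called effectors were Ifitm3 (1.98), which blocks virus entry at membranes, Rsad2 (viperin, 1.93), Rtp4 (1.90), Parp14 (1.84), an ADP-ribosyltransferase, Xaf1 (1.16) and Ifi35 (0.93). For Ifi35, 16.79% of exon bases overlap the antisense gene Gm11626, and the sources used here do not give the strand setting of the counting.

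The other 3 effectors were not called in the retina. Ifit2, a relative of Ifit1, was 15.4, 15.1, 13.3 and 12.7 CPM in WT and 18.4, 16.9, 18.1 and 16.8 CPM in KO (0.31 ± 0.08, adjusted p = 0.00665, edgeR). Cmpk2, a mitochondrial nucleotide kinase next to Rsad2 in the genome, was 13.5, 15.6, 12.7 and 12.6 CPM against 16.3, 17.3, 18.6 and 17.9 CPM (0.37 ± 0.08, adjusted p = 0.00302, edgeR). Both lay wholly above WT but under the minimum fold. Ifi44 was near the detection limit, with 0.748, 0.705, 0.414 and 0.211 CPM in WT and 1.02, 0.899, 1.12 and 0.673 CPM in KO, and its groups overlapped (0.83 ± 0.32, adjusted p = 0.0622, edgeR).

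In the ISG15 system, Isg15, a ubiquitin-like protein attached to targets after interferon, was 1.53, 1.87, 1.17 and 1.02 CPM in WT and 5.55, 6.74, 5.48 and 6.90 CPM in KO retinae (2.13 ± 0.17, adjusted p = 6.29e-07, edgeR). Usp18, which removes ISG15 and dampens the receptor, rose by a log2 fold change of 1.85 ± 0.16 (adjusted p = 1.72e-06, edgeR). Trim25, a ubiquitin ligase that acts on RNA sensing, gave 44.4, 45.5, 41.3 and 41.9 CPM in WT and 47.1, 46.8, 49.5 and 45.1 CPM in KO, and the groups overlapped (0.12 ± 0.05, adjusted p = 0.0866, edgeR). Both RNA sensors rose. Ifih1 (MDA5) was 4.69, 4.44, 4.82 and 4.51 CPM against 11.8, 11.5, 10.0 and 9.42 CPM (1.21 ± 0.09, adjusted p = 4.74e-07, edgeR), and Dhx58 (LGP2) was 1.84, 2.50, 1.92 and 1.66 CPM against 4.97, 3.42, 3.93 and 4.84 CPM (1.11 ± 0.16, adjusted p = 0.000163, edgeR).

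All 6 gamma-type GTPases, which act in the defence against intracellular microbes, rose in the KO retina. Gbp2 was 3.23, 3.10, 2.56 and 2.18 CPM in WT and 16.6, 16.7, 17.2 and 17.8 CPM in KO (2.62 ± 0.11, adjusted p = 1.04e-09, edgeR). Gbp3 was 4.46, 5.64, 4.41 and 2.64 CPM against 12.5, 12.2, 13.5 and 14.9 CPM (1.63 ± 0.16, adjusted p = 5.27e-06, edgeR), and Gbp7 was 5.31, 5.96, 4.26 and 4.72 CPM against 11, 12.7, 13.7 and 12.9 CPM (1.31 ± 0.11, adjusted p = 8.96e-07, edgeR). No GTPase had a KO library within its WT range. The immunity-related GTPases followed with Irgm1 at 1.42, Irgm2 at 1.26 and Igtp at 1.09, of which Igtp and Irgm2 share 162 exon bases in the annotation. Gbp7 shares 11.35% of its exon bases with the pseudogene Gm43802, and Rtp4 shares 13.89% with Gm45338, so that these values are less certain.

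The immunoproteasome genes moved least among gamma-type members. Psmb10, a catalytic subunit, was called (0.74 ± 0.10, adjusted p = 7.30e-05, edgeR). Psme1, a subunit of the PA28 activator, was 22.3, 25.8, 22.6 and 22.1 CPM in WT and 30.9, 32.2, 32.8 and 33.9 CPM in KO, which is under the minimum fold with no overlap (0.48 ± 0.06, adjusted p = 6.09e-05, edgeR). Psme2, the other PA28 subunit, was 10.5, 9.98, 9.87 and 10.1 CPM against 10.6, 12.1, 10.1 and 11.7 CPM, with overlapping groups (0.14 ± 0.08, adjusted p = 0.202, edgeR).

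**Figure D2:**
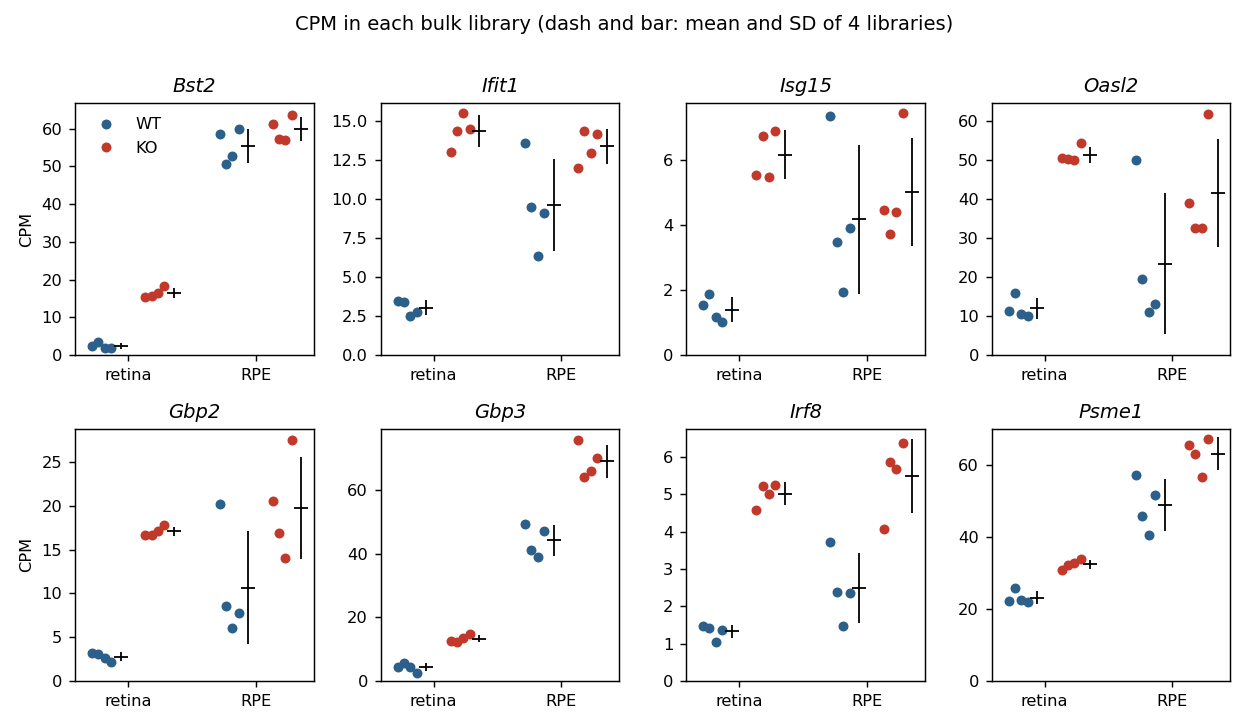
CPM of 8 members in each of the 16 bulk libraries at P30, WT in blue and KO in red, with the mean and SD of 4 libraries beside each group; tissues were scaled separately. In the retina KO points are clear of WT points for all 8, whereas in the RPE WT library 1 lies within the KO range for Oasl2 (50.1 CPM) and Gbp2 (20.2 CPM).

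Cell markers moved with genotype in the same retinae. All 12 microglia markers rose, and their summed level was 72.4 to 77.2 CPM in WT and 252 to 293 CPM in KO retinae. Astrocyte markers (Gfap, Pax2, S100b) summed to 26.8 to 37.9 CPM against 190 to 249 CPM, with Gfap alone of the 3 called. Müller glia markers summed to 4422 to 4805 CPM against 5716 to 6127 CPM, 2 of 8 of them called. Endothelial markers summed to 273 to 326 CPM against 445 to 470 CPM, 1 of 7 called. The median log2 fold change of these 7 was 0.09 (-0.14 to 0.87), and 5 had overlapping groups. The higher endothelial sum was thus not shared by most of its list. Rod markers fell in 7 of 8 cases, from 58040 to 63900 CPM summed in WT to 30040 to 34340 CPM in KO. T and NK cell markers were at 0.226 to 0.646 CPM in WT and 0.168 to 0.812 CPM in KO, with 1 of 8 measurable and none called, and no retina library had more than 0.0338 CPM of Cd3d, Cd3e, Cd3g or Nkg7. In bulk samples fewer cells of a type and less RNA per cell cannot be told apart. The part of these shifts in the ISG values was not tested in bulk.

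No interferon gene passed the filter on low counts in the retina. Ifnb1, Ifna1, Ifna4, Ifna5, Ifnk and Ifnl3 had no count in any of the 8 retina libraries. Ifng reached at most 0.0377 CPM in a WT library and had no count in KO libraries. Of the 13 listed ligands, only the cytokines Il15 (0.21 ± 0.16) and Il18 (-0.04 ± 0.12) passed the filter, and neither was called. Interferon RNA was thus not detectable beyond stray counts at this depth.

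Receptors were expressed and mostly level. Ifnar1 was 59.3 to 64.3 CPM in WT and 62.9 to 66.0 CPM in KO retinae (0.05 ± 0.04, adjusted p = 0.402, edgeR), and its partner Ifnar2 was 6.09 to 7.23 CPM against 8.84 to 10.2 CPM (0.47 ± 0.09, adjusted p = 0.000931, edgeR). Ifngr1 (33.95 to 37.5 against 31.8 to 33.9 CPM) and Ifngr2 (18.9 to 22.6 against 21.1 to 25.6 CPM) did not pass the test. Il10rb, shared by interferon lambda and interleukin 10 receptors, was the 1 receptor of 5 tested that was called (0.815 ± 0.13, adjusted p = 0.000314, edgeR). Ifnlr1 was below the filter.

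Downstream of the receptors, Stat3, used mainly by interleukin 6 family cytokines, rose from 66.0 to 76.0 CPM in WT to 250 to 291 CPM in KO retinae (1.93 ± 0.06, adjusted p = 5.12e-11, edgeR). Tyk2 gave 0.44 ± 0.07 (adjusted p = 0.000181, edgeR), under the minimum fold, while Jak1 (-0.02 ± 0.03) and Jak2 (-0.01 ± 0.05) did not pass. Of 7 inhibitors 3 rose: Socs3 (3.16 ± 0.10), a STAT3 target that blocks cytokine receptors, Ptpn6 (1.78 ± 0.17), a phosphatase of blood cells, and Socs1 (1.23). Pias1, which restrains STAT signalling, had a log2 fold change of -0.28 ± 0.04 (adjusted p = 0.000148, edgeR).

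The wider target lists are given by counts. Of other type I targets 27 of 31 tested rose and none fell (median log2 fold change 1.37), led by p by Ddx60 (1.66 ± 0.09), Ifit3b (1.18 ± 0.07) and Herc6 (1.74 ± 0.11). Of other gamma targets 19 of 23 tested rose (median 1.43), led by Serping1 (3.17 ± 0.10), which inhibits complement C1, H2-K1 (2.47 ± 0.10), an MHC class I chain, and Nlrc5 (2.89 ± 0.15), the activator of MHC class I genes. Among sensors and adaptors 10 of 17 tested rose (median 0.76), with Ddx58 (RIG-I, 1.16 ± 0.09), Myd88 (0.68 ± 0.07) and Tlr7 (2.1 ± 0.27) having the smallest p. The lists were drawn up with earlier results of these data known, and the counts describe them only.

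In the RPE at P30, 2 of the 33 members rose, where 2.02% of all 18989 genes tested did, and none fell (2.95% of all genes). Gbp3 was 49.3, 41.2, 39.1 and 47.0 CPM in WT and 75.6, 64.2, 65.9 and 70.2 CPM in KO (0.64 ± 0.09, adjusted p = 0.00590, edgeR). Xaf1, an interferon-induced partner of the apoptosis inhibitor XIAP, was 9.93, 10.0, 7.89 and 8.11 CPM against 14.2, 13.0, 12.6 and 15.8 CPM (0.63 ± 0.13, adjusted p = 0.0236, edgeR). Gbp3 kept its call without any 1 library, while Xaf1 lost it in 5 of 8 such fits (without KO library 1, 2 or 4 or WT library 3 or 4). With no minimum fold 5 members passed (2.84% of all genes), and 7 had every KO library above every WT library (7.37% of all genes). The median log2 fold change was 0.42 for type I and 0.52 for gamma-type members, against -0.02 for all genes.

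The 3 further members past the p threshold alone were Stat2, Irf9 and Irgm1. Stat2 was 55.8, 59.5, 53.9 and 55.0 CPM in WT and 71.4, 64.4, 72.0 and 69.7 CPM in KO RPE (0.31 ± 0.06, adjusted p = 0.0171, edgeR). Irf9 was 43.5, 44.2, 38.4 and 42.2 CPM against 53.7, 58.1, 58.2 and 59.2 CPM (0.45 ± 0.06, adjusted p = 0.00567, edgeR). Both showed a narrow spread within each genotype. Irgm1 was 32.1, 24.5, 22.1 and 26.4 CPM against 42.6, 33.8, 38.1 and 41.7 CPM (0.57 ± 0.13, adjusted p = 0.0362, edgeR).

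Much of the RPE spread came from WT library 1, which had the highest WT value in 26 of 33 members, although it was the highest WT library in 28.4% of all genes tested. Irf1 was 55.2 CPM there and 25.1, 11.6 and 19.9 CPM in WT libraries 2 to 4, against 48.5, 37.5, 34.4 and 65.2 CPM in KO (0.73 ± 0.45, adjusted p = 0.412, edgeR). Oasl2 was 50.1 CPM there and 19.5, 11.1 and 13.1 CPM in the others, against 39.0, 32.7, 32.5 and 61.8 CPM in KO. For both genes the 3 other WT libraries lay below every KO library. KO library 4 was the highest KO library in 24 of 33 members (27.3% of all genes).

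Without WT library 1, 12 members were called in the RPE, where 5.6% of all 19226 genes then tested were, and the medians were 0.55 for type I and 0.69 for gamma type. The 12 were the type I members Ifit1, Oasl2, Parp14, Usp18, Ifih1 and Xaf1 and the gamma-type members Gbp2, Gbp3, Irf1, Irf8, Irgm1 and Psmb10. The library was singled out by the values of these same members, so that leaving it out favoured more calls among them. Each RPE library left out in turn gave 1 to 12 calls. WT library 1 also had the most fibroblast marker RNA of the 8 RPE libraries (1291 CPM, against 386 to 623 CPM in other WT and 591 to 1009 CPM in KO libraries). Monocyte and neutrophil markers summed to 30.4 CPM in it and 46.4 CPM in KO library 4, against 10.2 to 18.7 CPM in the other 6 libraries. Rod marker RNA was 964 CPM in it, 1459 CPM in WT library 4 and 15220 to 15300 CPM in WT libraries 2 and 3, against 628 to 5238 CPM in KO. Microglia markers summed to 443 to 702 CPM in WT and 824 to 924 CPM in KO RPE, and 10 of 12 rose. RPE markers were 30390 to 46970 CPM in WT and 39940 to 41930 CPM in KO, so that the labelled cells were present throughout. Of these 8 markers 1 was called higher and 2 lower in KO, with a median log2 fold change of -0.33. Lens markers were 330 and 708 CPM in WT libraries 2 and 4 and 7.49 to 21.2 CPM in the other 6. Müller glia markers summed to 15620 to 23270 CPM in WT and 23970 to 24270 CPM in KO, and of the 8 only Clu was called (0.81 ± 0.16, adjusted p = 0.0209, edgeR). Clu was also the only 1 of the 8 with a positive estimate, and their median log2 fold change was -0.27. The higher sum was thus not shared by the list. The part of these marker levels in the ISG values was not tested.

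The remaining RPE members named by group had overlapping genotypes, except where stated. Irf8 was 3.73, 2.4, 1.47 and 2.35 CPM in WT and 4.08, 5.88, 5.67 and 6.37 CPM in KO with no overlap (1.14 ± 0.28, adjusted p = 0.0526, edgeR). Ifit3 was 94.1, 85.6, 65.8 and 112.3 CPM against 100.2, 91.8, 83.2 and 92.7 CPM (0.04 ± 0.15, adjusted p = 0.902, edgeR), and Ifitm3 was 68.3, 52.0, 32.2 and 65.6 CPM against 78.9, 67.0, 57.8 and 82.9 CPM (0.39 ± 0.23, adjusted p = 0.391, edgeR). Neither effector showed a genotype difference beyond its library spread. In the ISG15 system Trim25 was 96.6, 73.5, 72.9 and 76.9 CPM in WT and 88.3, 84.0, 80.1 and 99.9 CPM in KO (0.14 ± 0.11), and Usp18 was 7.86, 5.83, 5.06 and 5.81 CPM against 8.27, 8.70, 7.56 and 8.85 CPM (0.44 ± 0.15, adjusted p = 0.142, edgeR).

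The sensor Ifih1 was 18.9, 11.3, 11 and 11.1 CPM in WT and 20.6, 20.7, 17.2 and 22.0 CPM in KO RPE (0.62 ± 0.19, adjusted p = 0.110, edgeR), and Dhx58 was 3.67, 2.86, 1.94 and 3.25 CPM against 4.08, 4.15, 3.82 and 4.96 CPM with no overlap (0.54 ± 0.21, adjusted p = 0.194, edgeR). Only WT library 1 reached the KO range of Ifih1. Psme1 was 57.4, 46.0, 40.6 and 51.8 CPM against 65.6, 63.3, 56.7 and 67.4 CPM (0.37 ± 0.11, adjusted p = 0.101, edgeR), and Psmb10 was 20.02, 13.0, 13.4 and 13.4 CPM against 21.5, 21.5, 19.3 and 23.5 CPM (0.52 ± 0.15, adjusted p = 0.0956, edgeR). Ifit2 was the 1 member with a negative estimate in the RPE (-0.30 ± 0.14, adjusted p = 0.277, edgeR).

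Of the pathway in the RPE, Stat3 (log2 fold change 1.31 ± 0.08, adjusted p = 0.000248, edgeR) and Socs3 (2.41 ± 0.26, adjusted p = 0.00189, edgeR) rose, as did the phosphatase Ptpn2 (0.67 ± 0.10), whereas Ptpn1 (0.30 ± 0.08) did not pass. Ifnar2 gave 0.58 ± 0.08 (adjusted p = 0.00505, edgeR), under the minimum fold. None of 6 receptors and none of 16 sensors tested was called, nor were Jak1 (0.09), Jak2 (-0.03) and Tyk2 (0.25). Of other type I targets 2 of 32 rose, Lgals3bp (0.67 ± 0.07) and Herc6 (0.77 ± 0.18), and of other gamma targets 2 of 24, Nlrc5 (1.60 ± 0.16) and Tap2 (0.68 ± 0.16). Ifnb1 and the 4 listed Ifna genes had no count in any RPE library, and Ifng had none in KO.

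The KO effect differed between the tissues in 17 of 33 members in a test of the genotype by tissue interaction over all 16 libraries (edgeR's quasi-likelihood test, adjusted p below 0.05), against 8.84% of 21068 genes in either direction. In all 17 the log2 effect was smaller in the RPE, as it was in 5.73% of all genes. The 17 were 11 type I members (Irf9, Ifit1, Ifit2, Ifit3, Oas1a, Bst2, Rsad2, Ifitm3, Rtp4, Isg15, Usp18) and the 6 gamma-type GTPases. Ifit2 was no longer among them with a replicate block (-0.59, adjusted p = 0.0546, edgeR). Bst2 differed by -2.62 ± 0.21 (adjusted p = 3.00e-06, edgeR) and Oas1a by -2.41 ± 0.48 (adjusted p = 0.00491, edgeR). The gamma-type regulators Irf1 (-0.56 ± 0.49) and Irf8 (-0.75 ± 0.30) and the immunoproteasome genes did not pass.

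The levels from which the tissues started also differed, as far as separately scaled tables can be set side by side. Bst2 was 2.42 ± 0.787 CPM (SD, n = 4) in WT retinae and 55.4 ± 4.45 CPM in WT RPE, so that the KO retina at 16.4 ± 1.31 CPM remained below the WT RPE. Ifit3 was 11.3 ± 2.13 CPM and 89.5 ± 19.3 CPM, and Ifitm3 was 6.36 ± 1.9 and 54.5 ± 16.5 CPM. Irf9 and Gbp3 were likewise higher in the WT RPE (42.1 ± 2.59 against 22.1 ± 0.778 CPM, and 44.2 ± 4.81 against 4.29 ± 1.24 CPM). By contrast, Stat2 (57.8 ± 2.35 and 56.0 ± 2.42 CPM), Ifit2 (14.1 ± 1.34 and 13.2 ± 2.14 CPM) and Psme2 (10.1 ± 0.264 and 10.8 ± 1.86 CPM) were close in the 2 tissues, and Cmpk2 was lower in the RPE (6.06 ± 1.49 against 13.6 ± 1.38 CPM).

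In single cells, most type I UMIs (unique molecular identifiers, 1 per captured mRNA) of 5 of the 6 libraries lay in Müller glia, endothelium, RPE-like cells, astrocytes, microglia and pericytes. Cells were clustered anew and named from marker genes, so that shares may differ from other namings. The 6 classes together held 83.1%, 88.8% and 66.9% of type I UMIs in KO at P19, P25 and P30 and 78.0%, 71.8% and 42.2% in WT. Their order differed between the genotypes. Müller glia held 36.6%, 48.9% and 47.2% in KO and 12.0%, 23.5% and 22.2% in WT, and the endothelium 23.8%, 17.7% and 11.7% in KO and 48.8%, 38.9% and 12.3% in WT. In WT at P30, the library with the fewest type I UMIs (562), rods held the largest share of any class (24.9%). Pooled over libraries there were 48522 type I UMIs, of which the KO library at P25 gave 48.5%, so that the pooled shares below lean on it. Of 30920 pooled gamma-type UMIs 41.9% were in these 6 classes (14.8% to 62.8% by library), but this share rested on Psme1, Psme2 and Psmb10, without which it was 84.5%. Irf8 had 50.5% of its 491 UMIs in microglia. Among type I members Stat2 (24.8% in the 6 classes), Ifit2 (29.6%), Cmpk2 (39.9%), Dhx58 (41.6%), Trim25 (42.1%) and Irf9 (43.1%) had most of their UMIs in neurons and unnamed clusters.

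The 5 members with the most UMIs split along the same line. Ifitm3 (14278 UMIs) had 98.0% of them in the 6 non-neuronal classes and Bst2 (4771) 86.1%. Psme1 (13461) had 25.7%, Psme2 (5667) 31.2% and Psmb10 (4658) 36.02%, with amacrine cells holding 28.0% of the Psme1 UMIs.

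**Figure D3:**
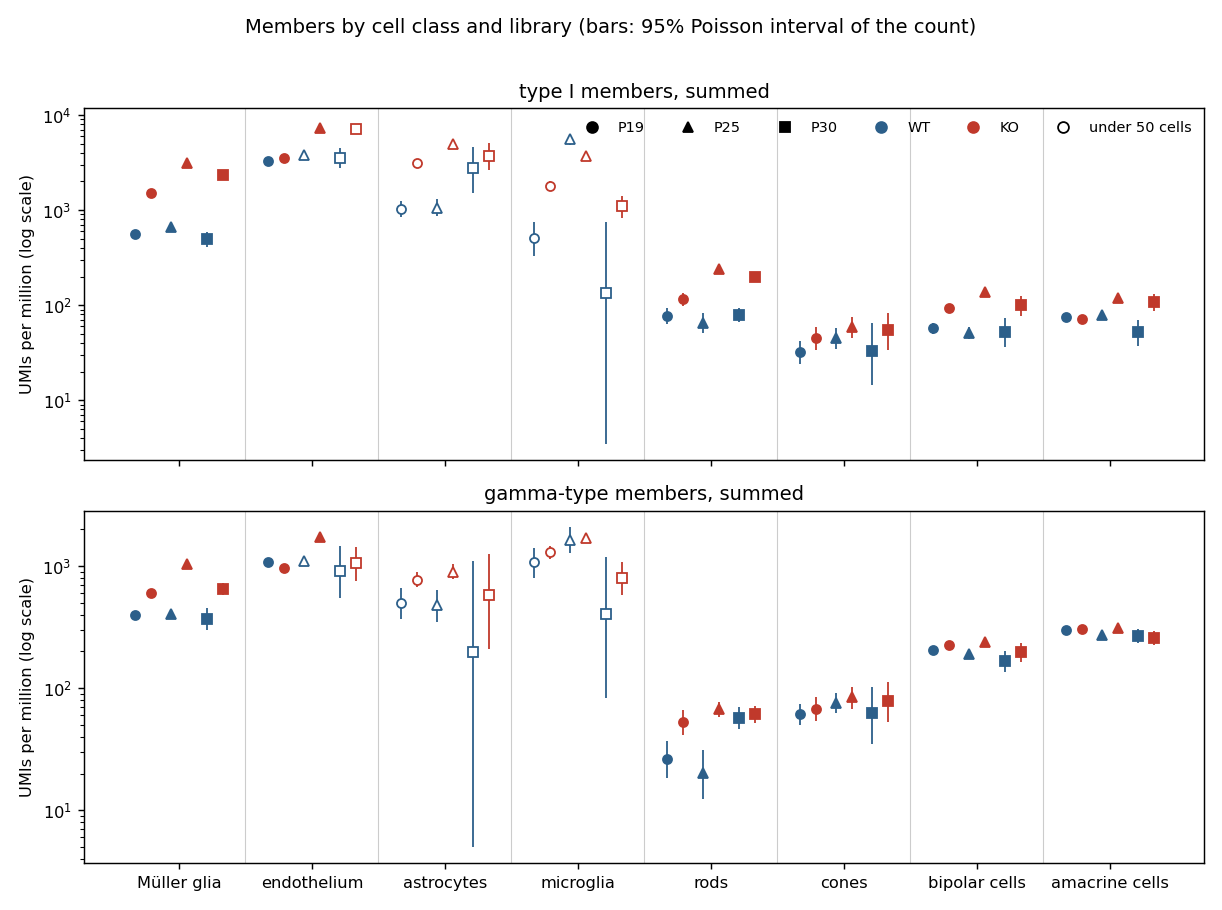
CPM of type I members (top) and gamma-type members (bottom), summed in each cell class, on a log axis, for the 6 single-cell libraries, WT in blue and KO in red, with exact 95% Poisson intervals of the count; open symbols mark fewer than 50 cells. Müller glia of the KO held 1509 to 3136 CPM of type I members against 493 to 660 CPM in WT, and the endothelium held 3311 CPM or more in both genotypes at every age.

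Müller glia of the KO held more type I UMIs than those of the WT at all 3 ages. Their type I sum was 1509 CPM (here the members' UMIs, scaled to the UMI total of the class) at P19, 3136 at P25 and 2330 at P30 in KO, and 554, 660 and 493 CPM in WT. The exact 95% Poisson intervals, which cover counting error only, ran from 1461 to 1559, 3079 to 3194 and 2196 to 2469 CPM in KO and from 518 to 592, 622 to 700 and 411 to 588 CPM in WT. Gamma-type sums were 598, 1047 and 650 CPM in KO and 397, 404 and 371 CPM in WT. Type I UMIs outnumbered gamma-type UMIs 2.52, 2.99 and 3.59 times in KO Müller glia and 1.40, 1.64 and 1.33 times in WT. Markers of other classes moved within the Müller glia as well. Astrocyte markers summed to 136, 196 and 350 CPM in KO and 18.6, 31.0 and 11.8 CPM in WT, and rod markers to 1106, 3614 and 4473 CPM in KO and 1277, 1151 and 3903 CPM in WT. Lens markers were at 1876 CPM in WT at P19 and at 2.05 CPM or below in the other 5 libraries, whereas Müller glia markers were at 41925 to 50461 CPM in all 6. The part of these markers in the type I sums was not tested. There was 1 library per genotype and age, and the P30 pair formed a sequencing batch of its own, so that batch and age cannot be told apart.

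Fitted over the 3 ages with limma-trend on summed UMIs (genotype and age, Benjamini-Hochberg over all 12614 genes tested), 8 of 33 members rose in Müller glia, against 0.381% of all genes. They were 5 type I members, Rsad2 (3.93 ± 0.34, adjusted p = 0.00703), Ifit1 (3.75 ± 0.24, adjusted p = 0.00241), Isg15 (3.12 ± 0.31, adjusted p = 0.00898), Ifitm3 (2.37 ± 0.19, adjusted p = 0.00630) and Ifit3 (1.78 ± 0.17, adjusted p = 0.00898), all by limma. The gamma-type members called by limma were Gbp2 (3.21 ± 0.27, adjusted p = 0.00703), Irf1 (1.78 ± 0.24, adjusted p = 0.0309) and Psmb10 (1.16 ± 0.18, adjusted p = 0.0496). At an unadjusted p below 0.05, 24 members passed, against 5.73% of all genes. All 33 estimates were positive, and 25 members were higher in KO at each of the 3 ages. Medians were 1.65 for type I and 1.03 for gamma type.

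The number called in Müller glia depended on the fit. It was 28 with edgeR's quasi-likelihood test (4.87% of all genes), 3 with a prior count of 0.5, 20 without P19 and 25 without P30. Ifit2 was the least steady member, with 32.4, 24.2 and 0 CPM at P19, P25 and P30 in KO and 7.71, 9.36 and 7.89 CPM in WT. At P19 and P25 most Müller glia were in cluster 4 and at P30 in cluster 15, in both genotypes.

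**Figure D4:**
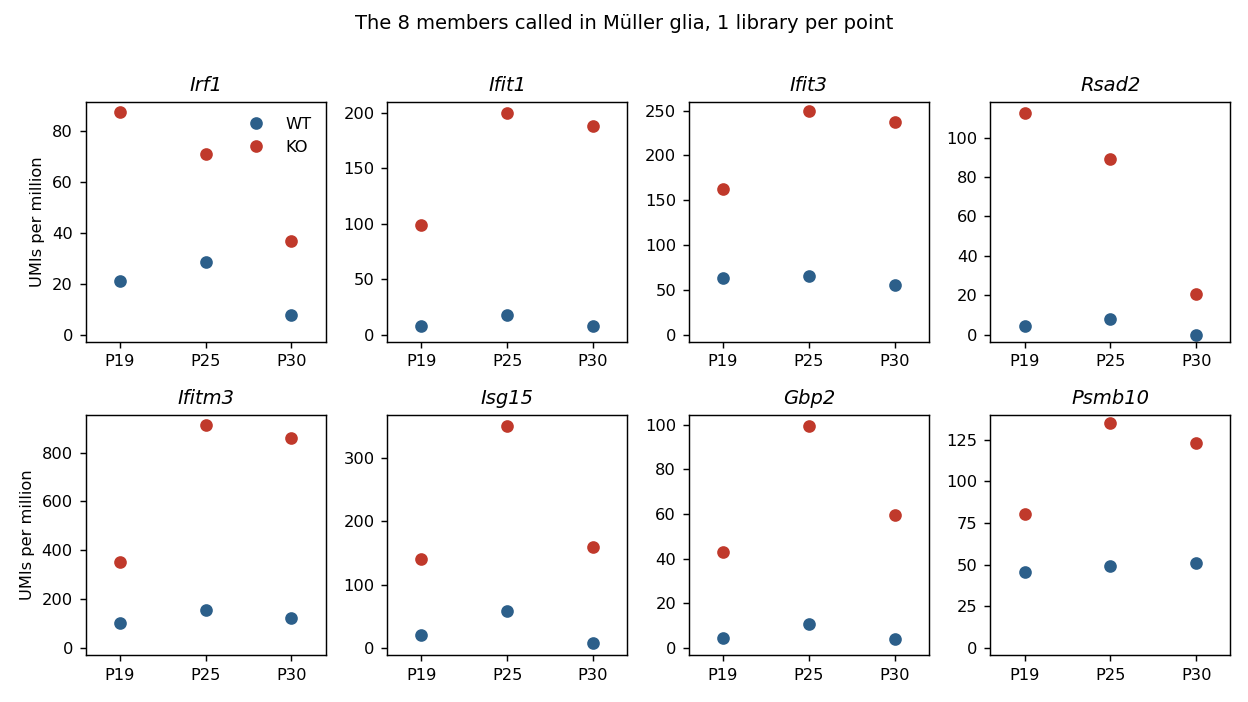
CPM in Müller glia (UMIs scaled to the class total) at P19, P25 and P30 for the 8 members called over the ages, 1 library per point, WT in blue and KO in red. The KO point is above the WT point at every age in all 8 genes.

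Ifit1 in Müller glia was 98.9, 200.2 and 188.5 CPM at P19, P25 and P30 in KO and 7.71, 18.1 and 7.89 CPM in WT. Isg15 was 139.9, 350.8 and 159.8 CPM against 21.2, 59.1 and 7.89 CPM. Both were already higher at P19, the youngest age. Rsad2 took another course, with 112.4, 89.0 and 20.5 CPM in KO and 4.5, 8.19 and 0 CPM in WT, and Irf1 was 87.4, 71.1 and 36.9 CPM against 21.2, 28.7 and 7.89 CPM. Gbp2 was 43.1, 99.4 and 59.4 CPM against 4.5, 10.5 and 3.95 CPM, Ifitm3 351.3, 912.3 and 858.6 CPM against 102.8, 154.4 and 122.3 CPM, and Psmb10 80.4, 135.3 and 122.9 CPM against 45.6, 49.1 and 51.3 CPM. Bst2 (137.1, 341.8 and 137.3 CPM against 50.8, 43.3 and 51.3 CPM) missed the threshold (adjusted p = 0.0538, limma).

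The type I signal was uneven among Müller glia of the KO at P19, where 22 of 498 cells (4.42%) held as many type I UMIs as all the others together. At P25 it took 91 of 577 cells (15.8%), at P30 29 of 154 (18.8%), and in WT 12 of 129 to 43 of 381 (11.3%). To compare at equal depth, cells were thinned to 1000 UMIs and shallower ones left out, which kept 487, 553 and 149 KO cells and 340, 367 and 112 WT cells at P19, P25 and P30. Then 49.7% (exact binomial 95% interval 45.2 to 54.2), 86.8% (83.7 to 89.5) and 79.2% (71.8 to 85.4) of KO Müller glia had a type I UMI. In WT the shares were 32.6% (27.7 to 37.9), 39.5% (34.5 to 44.7) and 34.8% (26.1 to 44.4). Unthinned shares were 83.9%, 98.1% and 92.9% against 68.0%, 75.6% and 48.1%. For gamma-type members the thinned shares were 41.3%, 57.7% and 45.6% in KO and 35.0%, 29.2% and 33.9% in WT.

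Rods had far lower ISG levels than Müller glia. Type I sums were 116, 243 and 196 CPM in KO rods at P19, P25 and P30 and 77.7, 65.7 and 79.3 CPM in WT, and 17 of 33 members had enough UMIs to be tested. Of these, 2 rose over the ages by limma, where 4.24% of all 11671 genes did, and both were type I members. At an unadjusted p below 0.05 by limma, 10 of the 17 were higher in KO, against 11.9% of all genes. They were 6 of 11 tested type I and 4 of 6 tested gamma-type members. All 17 estimates were positive, and 6 members were higher in KO at each of the 3 ages. WT rods at P19 and P25 were mostly in cluster 2 and at P30 in cluster 5, whereas KO rods were mostly in cluster 0 at P19 and P25 and in cluster 1 at P30.

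Bst2 in rods was 7.74, 47.3 and 102.5 CPM in KO at P19, P25 and P30 and 0, 1.01 and 3.40 CPM in WT (4.01 ± 0.37, adjusted p = 9.93e-06, limma). It was above 0 in 10 of 1146, 113 of 1970 and 215 of 1895 KO rods, or 0.873% (exact binomial 95% interval 0.419 to 1.60), 5.74% (4.75 to 6.86) and 11.3% (9.95 to 12.9). In WT rods the shares were 0 of 989 (exact binomial 95% interval 0 to 0.372%), then 0.128% and 0.448%. KO cones, deeper at a median of 4006, 3639 and 1783 UMIs against 1041.5, 1204 and 1019 in KO rods, had a Bst2 UMI in 1.02% (0.212 to 2.96), 2.73% (1.19 to 5.31) and 1.51% (0.312 to 4.34) of cells. The intervals of rods and cones were thus apart at P30 and overlapped at P19 and P25. At P19 the rod share was the lower of the 2. Such intervals cover the sampling of cells within 1 library only and do not test a difference between classes. Per UMI, KO cones had 2.58, 9.84 and 7.82 CPM of Bst2, below KO rods at each age. WT cones had 0.610, 0.702 and 0 CPM, so that Bst2 was higher in KO cones than in WT cones at each age. It had 19 UMIs in cones, under the minimum of 20 for a test.

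Within the P30 KO library, rods held 242 Bst2 and 15 Ifitm3 UMIs, and Müller glia held 67 Bst2 and 419 Ifitm3 UMIs. The 2 genes were closer in KO rods at the earlier ages. There Bst2 and Ifitm3 were 7.74 and 4.93 CPM at P19 and 47.3 and 28.0 CPM at P25. In KO Müller glia they were 137.1 and 351.3 CPM at P19 and 341.8 and 912.3 CPM at P25. Ifitm3 was highest at P25 in KO cells of both classes. The part of Müller glia RNA in the rod values was not tested. Irf9 in rods was 27.5, 52.4 and 29.2 CPM in KO and 6.79, 3.03 and 3.96 CPM in WT (2.71 ± 0.33, adjusted p = 0.000135, limma). KO rods had an Irf9 UMI in 3.40% (2.43 to 4.62), 6.80% (5.73 to 8) and 3.59% (2.80 to 4.53) of cells, and WT rods in 0.809%, 0.383% and 0.522%. The shares in the deeper KO cones were 2.73% (1.19 to 5.31), 2.05% (0.755 to 4.40) and 1.51% (0.312 to 4.34). The intervals of KO rods and cones were apart at P25 only, and they too cover the sampling of cells within 1 library. Both calls held in each of the alternative fits, including without any 1 age and without the 5% of cells with the most UMIs. No doublets were removed here, and their part in these values was not tested.

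**Figure D5:**
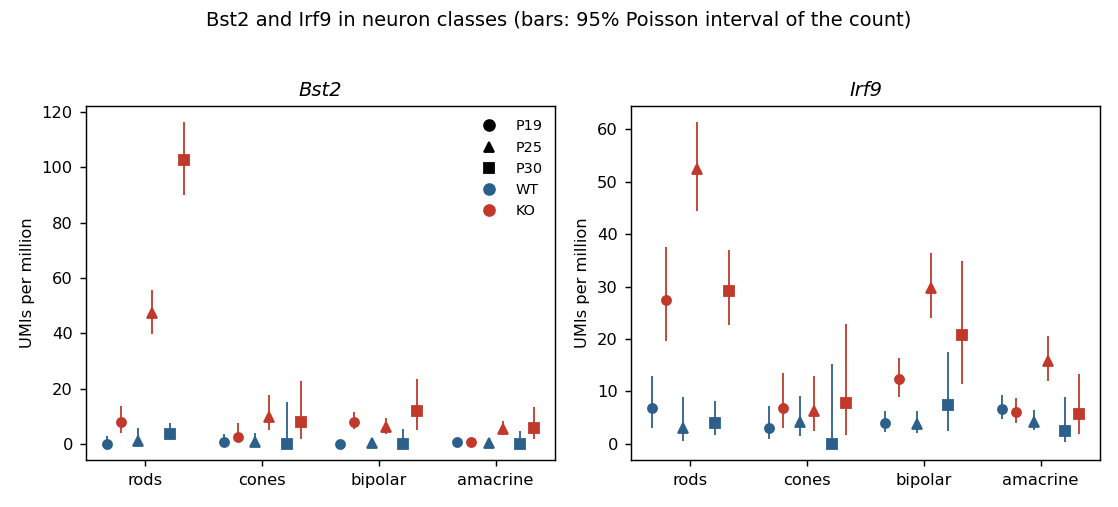
Bst2 and Irf9 in rods, cones, bipolar cells and amacrine cells, as CPM of the class at P19 (circles), P25 (triangles) and P30 (squares), WT in blue and KO in red, with exact 95% Poisson intervals. Bst2 reaches 102.5 CPM in KO rods at P30, while it is at or below 11.9 CPM in the other 3 classes.

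Gamma-type members in rods were not called, although 4 of the 6 tested passed an unadjusted p below 0.05 by limma. Sums were 52.8, 67.6 and 61.0 CPM in KO and 26.4, 20.2 and 57.2 CPM in WT, and the P30 intervals overlapped (51.5 to 71.8 against 46.6 to 69.5 CPM). Irgm1 was at 2.11, 4.39 and 2.12 CPM in KO rods and had no UMI in WT rods (adjusted p = 0.0764, limma), on 21 UMIs in all. Ifitm3, Isg15 and Ifit1, which were among the members called in Müller glia, were at 1.27 to 28.0 CPM in KO rods.

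In bipolar cells, amacrine cells and cones, fitted in the same way after the other classes had been seen, no member passed the adjusted threshold. At an unadjusted p below 0.05 by limma, 6 of 20 members tested were higher in KO bipolar cells (2.48% of all genes), 5 of 19 in amacrine cells (2.66%) and 1 of 9 in cones (2.94%). At the same threshold the sensor Dhx58 was lower in KO amacrine cells, at 1.35, 0.836 and 1.14 CPM against 2.05, 2.77 and 3.72 CPM in WT (-0.998 ± 0.42, adjusted p = 0.802, limma), on 38 UMIs in all. The shares past the adjusted threshold over all genes were 0.0232%, 0.00724% and 0.0191%. Bst2 in bipolar cells was 8.03, 6.00 and 11.9 CPM in KO and 0, 0.256 and 0 CPM in WT (3.51 ± 0.45, adjusted p = 0.0984, limma), and Irf9 was 12.3, 29.7 and 20.8 CPM against 3.94, 3.84 and 7.49 CPM (1.87 ± 0.34, adjusted p = 0.341, limma). In amacrine cells Bst2 was 0.674, 5.29 and 5.70 CPM against 0.559, 0.396 and 0 CPM (2.04 ± 0.66, adjusted p = 0.802, limma).

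Endothelium had a high type I level in both genotypes, at P19 with 3311 CPM (94 cells) in WT and 3557 CPM (53 cells) in KO and Poisson intervals of 3202 to 3423 and 3416 to 3703 CPM. At P25 it was 3807 CPM (41 cells) against 7287 CPM (53 cells), and at P30 3521 CPM (8 cells) against 7106 CPM (17 cells). Microglia were few, with 17, 7 and 4 cells in WT and 32, 40 and 33 in KO. Their type I sums were 1808, 3738 and 1096 CPM in KO and 505, 5568 and 135 CPM in WT, which have no common order between genotypes. Astrocytes (20 or 24 KO cells and 11 or 13 WT cells at P19 and P25) had 3105 and 5008 CPM in KO and 1030 and 1063 CPM in WT. RPE-like cells (58, 35 and 13 in KO and 96, 18 and 10 in WT) had 1311, 6926 and 1155 CPM in KO and 941, 689 and 552 CPM in WT, with intervals that overlapped at P30 (809 to 1599 against 316 to 896 CPM). They came from retina suspensions and are not the RPE samples of the bulk data. Their cluster was led by Best2 and Tyr, and 2 listed RPE markers, Pmel and Ttr, were among its 10 leading genes. The name is thus approximate. Pericytes (43, 11 and 13 in KO and 41, 6 and 6 in WT) had 3138, 8257 and 1738 CPM in KO and 1726, 1941 and 1275 CPM in WT, and their P30 intervals overlapped as well. With 1 library per genotype and age, none of these classes was tested.

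Over all cells of each library, with no use of clusters, 5 of 33 members rose over the ages by limma, against 0.806% of 18119 genes: Ifit1 (2.77 ± 0.34, adjusted p = 0.0176), Rsad2 (2.67 ± 0.24, adjusted p = 0.00658), Isg15 (2.22 ± 0.32, adjusted p = 0.0298), Ifit3 (1.68 ± 0.24, adjusted p = 0.0298) and Irf1 (1.44 ± 0.19, adjusted p = 0.0227). At an unadjusted p below 0.05 there were 26 (7.5% of all genes). The count of 5 fell to 1 without P30 and was 21 without P19.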

How the data were processed

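Bulk RNA-Seq of retina and RPE was deposited by the authors as raw counts per gene on mm10, with edgeR 3.20.9 and HOMER among the tools in the submitters' processing notes (aligner and counter not given in the sources used here). The single-cell matrix was deposited as natural log values made with Cell Ranger 2.1 and Seurat 3.2.2, in which log scaling to 10000 per cell had been applied in 2 successive steps. Both steps were undone, and 99.999985% of values came out whole (tolerance 0.01), so that these recovered UMIs entered the single-cell fits. The 2 tables of bulk counts were read by gene identifier, and 0 columns of samples were left unused.

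Counts were filtered with edgeR's default on low counts, scaled with TMM and tested with edgeR 4.0.16 (R 4.3.3) in each tissue separately, and the tissues were compared by the genotype by tissue term over all 16 libraries. Cells were clustered with scanpy 1.11.5 and leidenalg 0.10.2 (2000 variable genes, 30 components, 15 neighbors, resolution 1.0) and named from marker lists. UMIs were summed per class and library and fitted with limma 3.58.1 (limma-trend, prior count 2, genotype and age) for genes with at least 20 UMIs in all. No doublets were removed. Values per cell class are counts of UMIs, and intervals cover counting error only. P30 cells were sequenced apart from P19 and P25.

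Alternatives were DESeq2 1.42.0, limma-voom, no TMM, no filter, 1 fit for both tissues, a replicate block, each library left out, edgeR on summed UMIs, a prior count of 0.5, a minimum of 100 UMIs, each age left out and no cells of the top 5% in UMIs. Scripts were tested on simulated data. WT and KO samples that share a number deviated together, and were taken as paired in the blocked fit of each tissue. The correlation of deviations was 0.157 to 0.218 in the retina and 0.287 to 0.655 in the RPE. A KO sample of another number correlated more with the WT sample for 1 of 4 numbers in the retina and 3 of 4 in the RPE (highest values 0.173 and 0.617). The numbers thus do not single out the WT and KO pairs. In the blocked fit of the interaction, retina and RPE samples of the same genotype and number were paired instead. Their correlations were 0.0994 to 0.182 in WT and 0.0175 to 0.259 in KO. An RPE sample of another number correlated more with the retina sample for 0 of 4 numbers in WT and 3 of 4 in KO. Nothing in the labels says what the number marks.

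The members, the pathway and marker lists and the promoters were chosen with earlier results of these data known. Values in every library are given for the 2 members with the highest mean CPM in each member group, the 3 type I and 3 gamma-type members with the largest change among those called, and members not called in the retina. Of the pathway, ligands, receptors, kinases and STATs are named, with the 3 genes of smallest p in each other list. In single cells the 5 members with the most UMIs and those called in a class are named. Bst2, Gbp2 and Oasl2 in the RPE, and the retina-to-RPE level comparison, were chosen after their values were seen. One listed sensor was not matched by symbol, and 1 pathway gene is not reported here.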

Additional observations from a re-analysis of the deposited data

Results flagged for a closer look

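In groups of 4 bulk libraries, 11 member values stood apart from the other 3 by Dixon's test at its 95% critical value. Each of the 33 members was tested in each tissue and genotype. Chance flags about 1 in 20 groups, so that several of the 11 may be chance flags. In the retina these were Oasl2 in KO replicate 4 (54.33 CPM), Ifitm3 and Psme1 in WT replicate 2 (9.202 and 25.77 CPM) and Rtp4, low, in WT replicate 1 (0.6803 CPM). In the RPE they were Irf7 and Ifi44 in KO replicate 4 (23.18 and 2.562 CPM), Cmpk2, high, and Gbp7, low, in KO replicate 3 (8.467 and 20.34 CPM), and Trim25, Ifih1 and Psmb10 in WT replicate 1 (96.56, 18.85 and 20.02 CPM). WT replicate 1 and KO replicate 4 of the RPE were also the highest libraries of their genotypes for most members.

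The KO effect (log2) was smaller in the RPE than in the retina by a test of the difference itself (edgeR's interaction term) in 17 members. RPE minus retina it was -2.62 for Bst2, -2.41 for Oas1a, -1.85 for Isg15, -1.81 for Rsad2, -1.74 for Ifit1, -1.71 for Gbp2, -1.56 for Ifitm3, -1.54 for Rtp4, -1.39 for Usp18, -1.30 for Ifit3, -1.11 for Gbp7, -1.002 for Irgm2, -0.97 for Gbp3, -0.92 for Igtp, -0.82 for Irgm1, -0.75 for Irf9 and -0.59 for Ifit2. Ifit2 did not pass with a replicate block (adjusted p = 0.0546, edgeR).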

How the results depend on the processing

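The retina count of 25 was 25 to 27 under the alternatives run and 30 with no minimum fold. In the RPE the count of 2 was 4 with DESeq2, 5 with both tissues in 1 fit, 5 with no minimum fold and 1 to 12 with 1 library left out, the 12 being without WT replicate 1. The interaction count of 17 was 14 to 21 with 1 library left out. With the replicate block the counts were 26 in the retina, 2 in the RPE and 16 for the interaction, where Ifit2 lost its call. Over ages, rods gave 4 members in place of 2 without P30. Müller glia gave 28 by edgeR, 3 with a prior count of 0.5, 20 without P19 and 25 without P30 in place of 8, and all cells 10 by edgeR, 3 with a prior count of 0.5, 21 without P19, 3 without P25, 1 without P30 and 8 without the top 5% of cells in place of 5. The cause was not tested.

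The type I median in the retina was 1.40 without TMM, 1.22 without Irf1, Irf8, Ifitm3, Parp14 and Trim25, and 1.26 to 1.37 with 1 library left out. The gamma-type median was 1.42 without TMM. In the RPE, medians with 1 library left out were 0.31 to 0.55 for type I and 0.47 to 0.69 for gamma type, the latter 0.37 without those members.

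Signs reversed only for estimates that had not passed a test. In the RPE, with 1 library left out, log2 fold changes ran from -0.0818 to 0.169 for Ifit3 (below 0 without KO replicate 1 or WT replicate 3) and from -0.0156 to 0.359 for Rsad2 (below 0 without WT replicate 3 or 4). The tissue difference ran from -0.207 to 0.0411 for Cmpk2 and from -0.0218 to 0.13 for Trim25, which was -0.085 without TMM. In rods Irf7 was -0.0454 by edgeR and -0.274 without P25, Stat2 -0.185 without P30, and Xaf1 -0.0119, Trim25 -0.215 and Psme1 -0.0761 without P25. In Müller glia Irgm2 was -0.636 and Psme2 -0.0586 without P25, and Ifit2 -0.471 with a prior count of 0.5, -0.778 without P19, -0.323 without P25 and -0.297 without the top 5% of cells. Over all cells Psme1 was -0.0889 without P25, and Ifit2 0.107 by edgeR and 0.174 without P30.

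With 1 single-cell library per genotype and age, classes of few cells carry no test, and members under 20 UMIs in a class were not tested. Near-identical Ifit, Oas and Gbp copies make the split of their reads uncertain.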
